A study of Homo sapiens with 6 samples.

Results

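The comparison set 2 libraries of cells collected 4 h after light (uncaged 4 h) against 2 libraries of cells collected at 0 h without light (caged 0 h), which are 4 of the 6 libraries of a series on a light-activatable human TET2. The members were taken from the sample titles, treatment and time labels. All cells were HEK293T, a human line of embryonic kidney origin with the large T antigen of SV40, and all had been co-transfected with the plasmids pShP2419 and pStH1169. All were kept for 48 h with 0.1 mM of the photocaged amino acid 4,5-dimethoxy-2-nitrobenzyl-L-serine and rinsed in DPBS. The uncaged cells then stood on a transilluminator of 365 nm for 3 min and spent 4 h in growth medium. The remaining pair of libraries, with the same light and 8 h in medium, entered the fit for the estimate of the spread and is given beside single genes. From each sample 500000 transfected cells were sorted, and mRNA was sequenced on the DNBseq platform. Light, the change to fresh medium and the passage of time accompany uncaging in every 4 h library, so their effects cannot be told apart here. The labels do not say that the 2 replicates of a group came from separate cultures, and p-values then measure only the spread between these samples, which may be technical.

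TET2 is a dioxygenase that oxidises 5-methylcytosine, the methylated base of CpG dinucleotides, as the first step towards its removal. In a photocaged protein a suppressor tRNA places an amino acid with a light-sensitive protecting group at an amber codon, and light of a long ultraviolet wavelength removes that group. TET2 can also bind and recruit other proteins at promoters and enhancers, and HEK293T cells express all 3 TET genes.

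The 4 libraries held 20025955 and 19742156 estimated counts in the caged group and 17961652 and 17744751 at 4 h. Rows of plasmid sequence took 11.8% and 11.5% of the caged libraries and 15.1% and 14.96% of the 4 h libraries, and all 5 of these rows were higher at 4 h (log2 fold changes from 0.26 to 0.86). The most abundant HEK293T marker, VIM, was present at 484 and 521 CPM caged and 459 and 468 CPM at 4 h (adjusted p = 0.177; called lower with cyclic loess offsets, adjusted p = 0.017). All 10 markers of the line passed the filter on low counts. Their summed level was 643 and 684 CPM caged and 599 and 607 CPM at 4 h. Of the 10, 7 had both 4 h libraries below both caged ones and 0 above (median log2 fold change -0.18), and 0 were called higher. Over all 17449 tested features, 4942 lay below in this way and 4987 above. The neurofilament gene NEFL, named here after its values were seen, was called lower (log2 fold change -0.29, adjusted p = 0.0426). The part of this shift in the results was not tested. The summed levels of marker lists for other cells were at most 3.25 CPM for blood (CD3E at 0), 0.332 CPM for endothelium (CDH5 at 0), 2.31 CPM for liver, 7.89 CPM for skeletal muscle and 2.71 CPM for kidney tubule (UMOD at 0). CPM values are TMM-scaled, with gene rows alone in the library size.

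Of 17449 features tested, 1074 were called higher at 4 h (6.16%) and 622 lower (3.56%), at an adjusted p of at most 0.05 (edgeR quasi-likelihood test with Benjamini-Hochberg adjustment over all features). Calls were mostly of small size: the median log2 fold change was 0.38 among the higher and -0.53 among the lower features, and 119 and 91 of them passed 2-fold. Higher calls made up 63.3% of all calls, and 44.7% when libraries were scaled by their totals alone (731 higher and 904 lower). With 1 library left out, the counts fell to 420 higher and 94 lower (caged replicate 1), 279 and 83 (caged replicate 2), 350 and 153 (4 h replicate 1) and 165 and 61 (4 h replicate 2). Of the 1074 higher calls 143 were made in each of these 4 fits, and of the 622 lower calls 31 were. The 87 genes described are given with their level in each library, and the gene lists by the number of tested members called, to be read against 6.16% and 3.56%. The share called higher rose with level, from 2.68% between 1 and 10 CPM to 19.6% above 100 CPM. For lists of abundant genes 6.16% is therefore a low mark. With cyclic loess offsets, 726 of the 17449 features were higher and 443 lower. For 32 of the 87 genes the estimates were fractional in each of the 4 libraries, which means that their reads were shared with other features and their values are uncertain to that extent: PTPN14, ACTB, ACTG1, VCL, LARP7, BRD2, SRCAP, TET2, SRSF5, SRRM2, MAT2A, PER2, CSNK1D, DBP, TNFRSF10D, CDKN1A, MDM2, ATF4, ATF5, SLC7A5, H3C14, HSPA8, LHX4, NFIA, NEAT1, MT-ND6, MT-RNR2, MT-CO1, ZNF503, ZCCHC12, SEMA3F-AS1 and VIM. Further described genes were fractional in only some of the 4 libraries, such as HSPA1B, HEXIM1, MEPCE and SRSF6 in 3. Of the 76 described genes with a call, 30 had whole estimates in all 4. In these bulk samples fewer cells of a kind and less RNA per cell cannot be told apart.

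**Figure D1:**
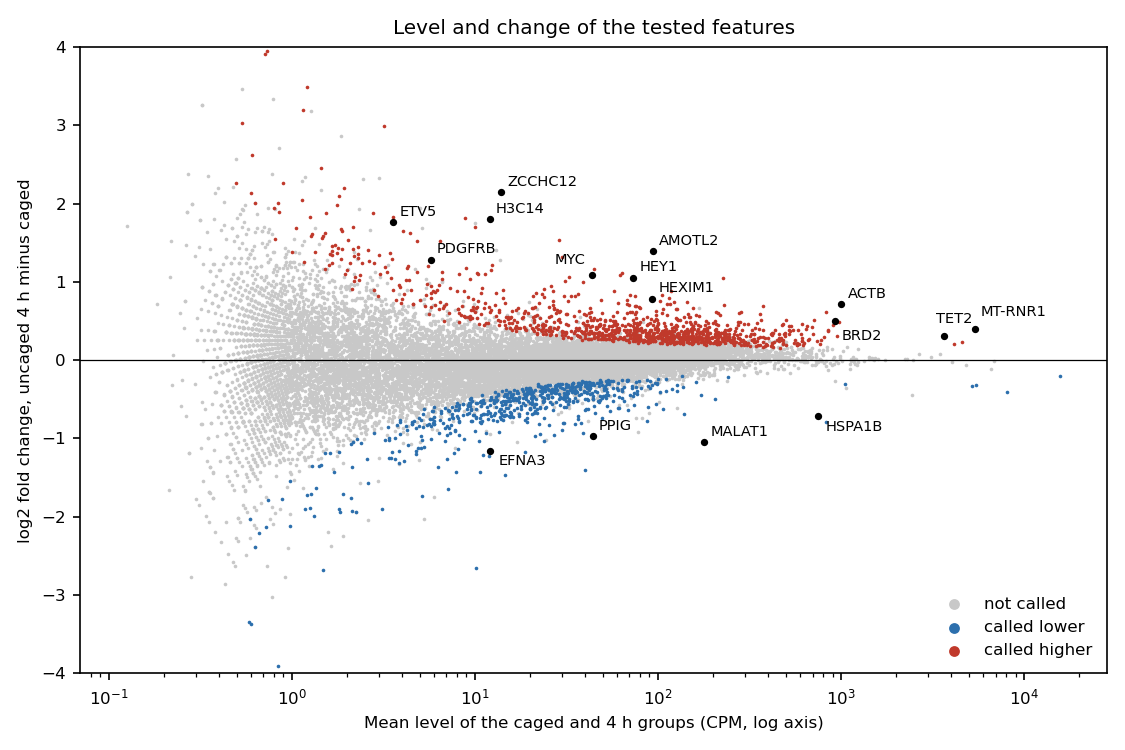
Mean level of the caged and 4 h groups in CPM (log axis) against the log2 fold change of uncaged 4 h minus caged, for each tested feature within 4 of zero in either direction. Red and blue points were called higher and lower, black points are named genes. Above 100 CPM the called features lie almost wholly above the zero line, 467 higher against 23 lower.

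Several genes of the actin cytoskeleton and of the Hippo pathway rose. The Hippo kinases restrain YAP, a coactivator that drives TEAD transcription factors, and the angiomotins and PTPN14 hold YAP out of the nucleus, and AMOTL2 is itself induced by YAP. AMOTL2, an angiomotin (chr3:134355874-134375479, minus strand), had the smallest p among the YAP and TEAD targets: it stood at 51.5 and 52.2 CPM caged and 135 and 138 CPM at 4 h, which is 2.63-fold (log2 fold change 1.4 ± 0.056, adjusted p = 6.22e-05). The 4 h values lay far above both caged values, and at 8 h they were 137 and 137 CPM. Its relative AMOT (chrX:112774503-112840815, minus strand) went from 84.1 and 84.1 CPM to 128 and 127 CPM (log2 fold change 0.601 ± 0.054, adjusted p = 0.00152), and the phosphatase gene PTPN14 from 63.5 and 58.8 CPM to 93.4 and 102 CPM (log2 fold change 0.67 ± 0.076, adjusted p = 0.00318). The secreted matricellular proteins CCN1 and CCN2 are the usual reporters of YAP activity. CCN1 went from 24.5 and 23.9 CPM to 44.4 and 37.3 CPM (log2 fold change 0.76 ± 0.10, adjusted p = 0.00503). CCN2 was scarce and went from 4.47 and 3.38 CPM to 7.88 and 7.34 CPM (log2 fold change 0.95 ± 0.18, adjusted p = 0.0159), and its call was lost without caged replicate 2, 4 h replicate 1 or 4 h replicate 2 (adjusted p 0.0336 to 0.0895 with 1 library left out). ANKRD1, another common reporter, was at 0.654 and 0.885 CPM caged and 1.9 and 1.32 CPM at 4 h and did not pass (adjusted p = 0.0936).

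Of 22 tested YAP and TEAD targets 7 were called higher and none lower, with a median log2 fold change of 0.11 beside -0.01 over all features. The count was 5, 4, 4 and 4 with caged replicate 1, caged replicate 2, 4 h replicate 1 and 4 h replicate 2 left out in turn, and it was 7 with intensity-dependent scaling (cyclic loess offsets). With library totals alone, 2 members were called lower as well. Among 29 components of the Hippo pathway itself 7 were higher and 1 lower, with a median of -0.02. Those 7 became 3, 3, 4 and 3 in the same 4 fits, and the single lower call was made in none of them.

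The letters GGAATG, the core that TEAD factors recognise, occur 3 times before the start of CCN2. A search of the 250 bases before and 50 bases after the first listed RefSeq start of each gene (GRCh38.p14), on both strands, found them in 10.8% of the 12039 tested promoters, and in 7 of 17 tested YAP and TEAD target promoters, 3 of them among the 6 called higher. AMOTL2 has 2 RefSeq starts, whose surroundings differ in the CpG dinucleotides that TET enzymes act on. The 250 bases before each start are printed 5′ to 3′ on the gene's strand, with GGAATG in either orientation in capitals for CCN2 and each CpG in capitals for AMOTL2. The CCN2 stretch is chr6:131951373-131951622, minus strand, the first AMOTL2 stretch is chr3:134375418-134375667, minus strand and the second is chr3:134374448-134374697, minus strand.
CCN2: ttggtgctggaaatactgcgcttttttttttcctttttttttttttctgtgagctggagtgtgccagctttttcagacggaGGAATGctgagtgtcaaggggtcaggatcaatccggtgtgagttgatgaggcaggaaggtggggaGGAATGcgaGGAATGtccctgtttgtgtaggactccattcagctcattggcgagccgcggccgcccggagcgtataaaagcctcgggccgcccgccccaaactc
AMOTL2 first start: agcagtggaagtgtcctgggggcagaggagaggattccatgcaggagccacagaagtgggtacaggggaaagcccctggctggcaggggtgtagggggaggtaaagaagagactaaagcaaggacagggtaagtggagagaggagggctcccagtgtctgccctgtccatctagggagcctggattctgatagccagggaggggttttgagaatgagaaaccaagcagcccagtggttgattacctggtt
AMOTL2 second start: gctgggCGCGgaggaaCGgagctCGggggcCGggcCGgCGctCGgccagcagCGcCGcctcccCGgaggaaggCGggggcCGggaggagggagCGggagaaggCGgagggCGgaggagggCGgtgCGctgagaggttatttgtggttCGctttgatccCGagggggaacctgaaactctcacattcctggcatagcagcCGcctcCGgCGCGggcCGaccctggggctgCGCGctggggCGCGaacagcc
The CCN2 matches begin at -169, -104 and -95, where -1 is the base before the start. The first AMOTL2 stretch holds 0 CpG and the second 29. The second also holds cattcc, left in lower case, which is GGAATG on the other strand. The search over all genes used the first start, so AMOTL2 was counted there as a promoter without the TEAD core. The counts per gene do not say which start was used, and methylation was not measured in these libraries.

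The cytoskeletal genes ACTB and ACTG1, which encode the nonmuscle actins, rose in parallel. ACTB (chr7:5527147-5563784, minus strand) was at 801 and 722 CPM caged and 1248 and 1248 CPM at 4 h (log2 fold change 0.71 ± 0.052, adjusted p = 0.000799). ACTG1 went from 844 and 781 CPM to 1155 and 1128 CPM (log2 fold change 0.49 ± 0.048, adjusted p = 0.00191). VCL, the focal adhesion protein vinculin, was at 159 and 159 CPM caged and 212 and 212 CPM at 4 h (log2 fold change 0.42 ± 0.048, adjusted p = 0.00351) and at 168 and 168 CPM at 8 h. All of these 4 h values lay above both caged values. SRF, the transcription factor that drives actin genes with its MRTF coactivators, was itself at 85.1 and 76.3 CPM caged and 83.9 and 97.6 CPM at 4 h and its groups overlapped (adjusted p = 0.253). Of 31 SRF and MRTF targets 6 were called higher and 2 lower (median 0.11). Leaving out 1 library gave 4, 3, 3 and 3 higher and 0, 0, 1 and 0 lower, in the order used above.

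Growth factor signalling genes moved in both directions. ERK kinases relay receptor signals, and SPRED, SPRY and DUSP proteins are induced by ERK and shut it off again. ETV5, an ETS factor induced by ERK, had low counts and rose from 1.36 and 1.88 CPM to 6.3 and 4.76 CPM, or 3.4-fold (log2 fold change 1.77 ± 0.25, adjusted p = 0.00605). SPRED2 went from 28.1 and 30.4 CPM to 45.9 and 44.8 CPM (log2 fold change 0.63 ± 0.075, adjusted p = 0.00366) and DUSP16, a phosphatase of stress kinases, from 115 and 129 CPM to 174 and 183 CPM (log2 fold change 0.55 ± 0.067, adjusted p = 0.00395). Over 30 ERK feedback genes 9 were called higher and 1 lower (median 0.14). With libraries left out in the same order these were 4, 3, 5 and 3 higher, and the lower call was lost each time.

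AP-1 factors are dimers of JUN, FOS, ATF and MAF proteins and serve as early responders to growth and stress signals. JUN was at 467 and 485 CPM caged and 616 and 627 CPM at 4 h (log2 fold change 0.38 ± 0.042, adjusted p = 0.00263) and MAFG, a small MAF protein, at 54.4 and 51.9 CPM caged and 86.7 and 86.6 CPM at 4 h (log2 fold change 0.705 ± 0.063, adjusted p = 0.00152). FOSL1 went from 17.6 and 16.9 CPM to 24.2 and 26.7 CPM (log2 fold change 0.56 ± 0.085, adjusted p = 0.00795), and its call was lost without caged replicate 2 or 4 h replicate 2 (adjusted p 0.0312 to 0.0778 with 1 library left out). JUNB, which often opposes JUN, fell from 25.1 and 23.8 CPM to 16.9 and 16.9 CPM (log2 fold change -0.53 ± 0.087, adjusted p = 0.0104) and was not called with any 1 of the 4 libraries left out (adjusted p 0.055 to 0.0765 with 1 library left out). FOS, the classical early gene, was at 8.01 and 6.81 CPM caged and 6.63 and 3.04 CPM at 4 h, both 4 h values below both caged values without a call (adjusted p = 0.231), and was called lower without 4 h replicate 1 (adjusted p 0.0362 to 0.713 with 1 library left out). KLF6, a zinc finger factor induced early by growth signals, fell from 62.2 and 65 CPM to 41.3 and 43.4 CPM (log2 fold change -0.59 ± 0.069, adjusted p = 0.00366). The AP-1 and ATF list had 6 higher and 1 lower of 24 (median 0.12), and 4, 3, 4 and 2 higher with libraries left out. The EGR, KLF and IER regulators had 3 higher and 3 lower of 33 (median 0.01); leaving out caged replicate 1, caged replicate 2 or 4 h replicate 2 left no higher call, and leaving out 4 h replicate 1 left 2, beside 2, 1, 1 and 1 lower calls.

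Single targets of other signalling routes stood out by size. MYC, the growth-promoting transcription factor, was at 29 and 26.6 CPM caged and 63.7 and 54.9 CPM at 4 h, 2.13-fold (log2 fold change 1.09 ± 0.091, adjusted p = 0.00109), and at 44.9 and 42.5 CPM at 8 h. LIF, a cytokine of the interleukin-6 family, was at 42.3 and 37 CPM caged and 80.9 and 87.5 CPM at 4 h (log2 fold change 1.08 ± 0.088, adjusted p = 0.001). HEY1, a repressor that Notch and BMP signals induce, was at 47.2 and 47.8 CPM caged and 99.1 and 98.4 CPM at 4 h (log2 fold change 1.06 ± 0.064, adjusted p = 0.000364). In all 3 genes both 4 h values were well above both caged values. PDGFRB, a receptor for platelet-derived growth factor, was scarce and went from 3.43 and 3.26 CPM to 7.61 and 8.73 CPM (log2 fold change 1.28 ± 0.16, adjusted p = 0.00443). SMAD6, an inhibitor that BMP signals induce, went from 8.17 and 6.97 CPM to 13.8 and 14.9 CPM (log2 fold change 0.92 ± 0.12, adjusted p = 0.00513; adjusted p 0.0218 to 0.0536 with 1 library left out, highest without 4 h replicate 2). In the surrounding lists 2 of 34 Notch genes were higher (5.88%) and 0 lower, and 4 of 43 Wnt genes higher (9.30%) and 3 lower (6.98%). Of 43 BMP and TGF-beta response genes 6 were higher (13.95%) and 4 lower (9.30%), beside 6.16% and 3.56% over all features. Of 24 genes of LIF, gp130 and JAK-STAT signalling LIF was the only one called.

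**Figure D2:**
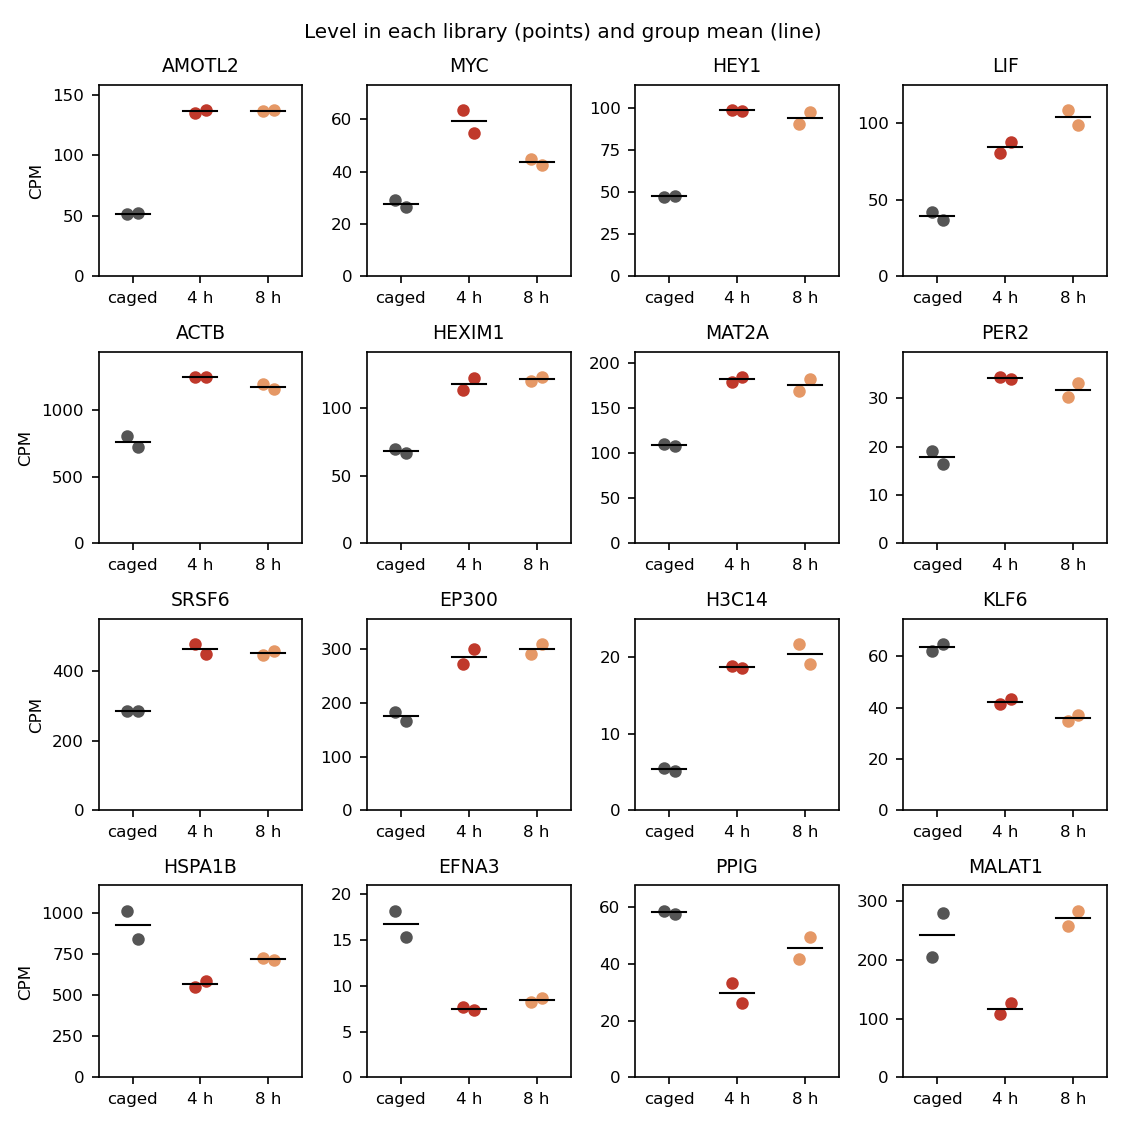
Level of 16 genes in CPM (linear axes from 0) in each library of the 3 groups, with points for libraries and a line at the mean of the 2. For each gene shown the 2 caged and the 2 points at 4 h do not overlap; MYC, PPIG and MALAT1 differ between 4 h and 8 h.

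The regulators of transcriptional elongation had calls in both directions, more of them higher than lower. P-TEFb, the kinase CDK9 with cyclin T1, releases paused RNA polymerase II; the 7SK RNA with HEXIM1, MEPCE and LARP7 keeps it inactive, and BRD2 and its relatives bind acetylated histones. HEXIM1 (chr17:45148502-45152101, plus strand) was at 69.8 and 66.8 CPM caged and 113 and 122 CPM at 4 h (log2 fold change 0.79 ± 0.064, adjusted p = 0.001). MEPCE, which caps 7SK, was at 129.96 and 129 CPM caged and 185 and 199.97 CPM at 4 h (log2 fold change 0.57 ± 0.057, adjusted p = 0.00191). LARP7, which binds the end of 7SK, moved the other way from 11.6 and 11.6 CPM to 7.81 and 7.27 CPM (log2 fold change -0.62 ± 0.14, adjusted p = 0.03). That call was lost with any 1 library left out (adjusted p 0.0977 to 0.16 with 1 library left out) and with cyclic loess offsets (adjusted p = 0.0632). BRD2 was abundant and went from 772 and 768 CPM to 1066 and 1107 CPM (log2 fold change 0.496 ± 0.038, adjusted p = 0.000983). CDK12, a kinase of elongating polymerase, went from 102 and 105 CPM to 141 and 157 CPM (log2 fold change 0.53 ± 0.07, adjusted p = 0.00473; adjusted p 0.0179 to 0.0523 with 1 library left out, highest without 4 h replicate 2). The kinase itself did not pass: CDK9 was at 65.7 and 61.8 CPM caged and 57.7 and 62.3 CPM at 4 h (adjusted p = 0.465) and CCNT1 at 129 and 132 CPM caged and 141 and 143 CPM at 4 h (adjusted p = 0.225), though with offsets for length and GC content CCNT1 was called higher (adjusted p = 0.0281). Over 47 elongation genes 10 were higher and 3 lower (median 0.11), 6 and 2 with cyclic loess, and 8, 7, 6 and 3 higher with no lower call as libraries were left out.

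Among chromatin regulators several acetyltransferase genes rose. EP300, which acetylates histones at enhancers, was at 184 and 167 CPM caged and 272 and 300.2 CPM at 4 h (log2 fold change 0.71 ± 0.07, adjusted p = 0.00191), and its paralog CREBBP at 126 and 113 CPM caged and 182 and 198 CPM at 4 h (log2 fold change 0.67 ± 0.07, adjusted p = 0.00236). BRPF3, a scaffold of another acetyltransferase complex, went from 51.1 and 56.7 CPM to 93.8 and 97.3 CPM (log2 fold change 0.83 ± 0.072, adjusted p = 0.00136). SRCAP, the ATPase that deposits the histone variant H2A.Z, was at 181 and 116 CPM caged and 301 and 311 CPM at 4 h (log2 fold change 1.04 ± 0.17, adjusted p = 0.0102); its caged libraries differed widely from each other, and the call was lost without 4 h replicate 2 (adjusted p 0.00431 to 0.0778 with 1 library left out). ARID4B, a subunit of a deacetylase complex, fell from 72.6 and 74.4 CPM to 48 and 48.5 CPM (log2 fold change -0.61 ± 0.076, adjusted p = 0.00428) and was at 65.9 and 75.1 CPM at 8 h. Of 49 acetyltransferases, deacetylases and readers 10 were higher and 2 lower (median 0.06). That list had 8, 7, 7 and 6 higher calls in the fits with a library left out and 0, 0, 1 and 0 lower calls, and had 8 and 0 with cyclic loess.

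Lysine methyltransferases had 8 higher and 0 lower of 35 (median 0.10) and demethylases 5 and 0 of 23 (median 0.13). Both counts fell in most fits with 1 library left out, as did the calls over all features, so the fall is not particular to these lists. A list of ATP-dependent remodelers that also holds ARID genes had 8 higher and 4 lower of 58 (median 0.01). ARID4B, described above, and ARID5B were counted in that list and were among its lower calls. With cyclic loess, 5, 2 and 4 members were higher in these 3 lists. Among the enzymes of DNA methylation and demethylation 4 of 32 were higher and 2 lower (median -0.02). TET2 read 3254 and 3288 CPM caged and 4088 and 4039 CPM at 4 h, but transcripts of the plasmid and of the gene share sequence, so the endogenous gene cannot be read from this row (log2 fold change 0.31 ± 0.033, adjusted p = 0.00248; adjusted p = 0.113 with cyclic loess). TET1 fell from 41.4 and 39.5 CPM to 28.7 and 27.4 CPM (log2 fold change -0.53 ± 0.093, adjusted p = 0.013), a call that was lost whichever of the 4 libraries was left out (adjusted p 0.0616 to 0.105 with 1 library left out), and TET3 was at 48.2 and 44 CPM caged and 47.4 and 57.9 CPM at 4 h with overlapping groups (adjusted p = 0.259).

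RNA processing genes formed one of the broadest groups of higher calls. SR proteins bind exonic enhancers and guide the spliceosome, and many regulate their own transcripts through exons that trigger decay. SRSF6 was at 286 and 285 CPM caged and 478 and 447 CPM at 4 h (log2 fold change 0.697 ± 0.049, adjusted p = 0.000708), SRSF5 at 165 and 163 CPM caged and 258 and 244 CPM at 4 h (log2 fold change 0.61 ± 0.061, adjusted p = 0.00191) and SRSF3 at 531 and 569 CPM caged and 755 and 741 CPM at 4 h (log2 fold change 0.44 ± 0.05, adjusted p = 0.00303). The nuclear speckle scaffold SRRM2 went from 709.98 and 597 CPM to 962 and 1035 CPM (log2 fold change 0.61 ± 0.075, adjusted p = 0.00412). PPIG, a speckle prolyl isomerase with a tail rich in arginine and serine, went the other way from 58.9 and 57.7 CPM to 33.5 and 26.3 CPM (log2 fold change -0.97 ± 0.12, adjusted p = 0.00415), and was at 41.9 and 49.7 CPM at 8 h. Of 40 SR and SR-like genes 17 were higher and 2 lower (median 0.17). The higher calls numbered 13, 11, 11 and 6 with libraries left out and 10 with cyclic loess, beside 3 lower.

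Helicases and decay factors were also among the higher calls. Of 49 DEAD and DEAH box helicases, which unwind RNA in splicing, export and ribosome assembly, 16 were higher and 0 lower (median 0.18); these were 4, 5, 6 and 1 with libraries left out and 9 with cyclic loess. Of 55 mRNA decay and repression genes 14 were higher and 4 lower (median 0.11), 8, 4, 7 and 2 higher and 0, 0, 1 and 0 lower with libraries left out, and 5 and 4 with cyclic loess. SMG8, a regulator of the kinase of nonsense-mediated decay, went from 53.7 and 57.5 CPM to 86.3 and 83.4 CPM (log2 fold change 0.61 ± 0.079, adjusted p = 0.00458). UPF3B, which links exon junctions to that pathway, fell from 81.1 and 86.5 CPM to 57.1 and 50.9 CPM (log2 fold change -0.63 ± 0.12, adjusted p = 0.0152; adjusted p 0.0538 to 0.118 with 1 library left out, never called) and was at 73 and 93.8 CPM at 8 h. MAT2A makes S-adenosylmethionine, the methyl donor, and its mRNA is known to be stabilised by splicing of a retained intron when the donor is scarce. MAT2A (chr2:85539165-85545280, plus strand) was at 109.6 and 108 CPM caged and 179 and 185 CPM at 4 h (log2 fold change 0.74 ± 0.059, adjusted p = 0.001). ZC3H4, which terminates noncoding transcription, was at 40.6 and 39.95 CPM caged and 82.6 and 91.5 CPM at 4 h (log2 fold change 1.11 ± 0.071, adjusted p = 0.000479).

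Clock genes also had more higher than lower calls. The circadian clock is a loop in which CLOCK and BMAL1 drive PER and CRY genes, whose products then repress them. PER2 was at 19.2 and 16.5 CPM caged and 34.5 and 34.1 CPM at 4 h, 1.92-fold (log2 fold change 0.94 ± 0.095, adjusted p = 0.00191). CRY1 went from 48.5 and 49.8 CPM to 71.5 and 63.2 CPM (log2 fold change 0.45 ± 0.076, adjusted p = 0.0109), and was called only without 4 h replicate 2 when 1 library was left out (adjusted p 0.0387 to 0.0691 with 1 library left out). NR1D2, the nuclear receptor REV-ERB beta, went from 87.7 and 94.1 CPM to 129 and 124 CPM (log2 fold change 0.48 ± 0.067, adjusted p = 0.00605; adjusted p 0.0297 to 0.0506 with 1 library left out, highest without 4 h replicate 2), and CSNK1D, the kinase that marks PER proteins for decay, from 236 and 221 CPM to 322 and 317 CPM (log2 fold change 0.48 ± 0.05, adjusted p = 0.00224). DBP, a clock output factor, fell from 18.6 and 21 CPM to 13.4 and 14.7 CPM (log2 fold change -0.497 ± 0.13, adjusted p = 0.0453), and was called neither with any 1 library left out (adjusted p 0.102 to 0.22 with 1 library left out) nor with cyclic loess (adjusted p = 0.101). Of 26 clock genes 6 were higher and 3 lower (median 0.01), with 4, 3, 3 and 3 higher and no lower calls as libraries were left out, and 4 and 0 with cyclic loess.

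Many genes of DNA replication were higher by small amounts. Of 57 S-phase and origin genes 20 were higher and 0 lower (median 0.14), and 40 had both 4 h libraries above both caged ones, against 4987 of 17449 features, where 6.16% of features were called higher. MCM6, a subunit of the replicative helicase, was at 372 and 381 CPM caged and 486 and 474 CPM at 4 h (log2 fold change 0.35 ± 0.043, adjusted p = 0.00412). UNG, which excises uracil from DNA, went from 108 and 106 CPM to 154 and 149 CPM (log2 fold change 0.51 ± 0.054, adjusted p = 0.00243), and E2F8, a repressor of E2F targets, from 64.1 and 59.8 CPM to 88.9 and 91.5 CPM (log2 fold change 0.54 ± 0.075, adjusted p = 0.00572; adjusted p 0.0283 to 0.061 with 1 library left out, highest without 4 h replicate 2). The 20 calls became 8, 9, 9 and 3 with libraries left out and 9 with cyclic loess. Ribosome biogenesis and nucleolar genes had 17 higher and 0 lower of 63 (median 0.14), 8, 4, 4 and 2 with libraries left out and 9 with cyclic loess. UTP20, a component of the small subunit processome, went from 44 and 42.7 CPM to 60.9 and 57 CPM (log2 fold change 0.44 ± 0.067, adjusted p = 0.00744; adjusted p 0.0423 to 0.0598 with 1 library left out, above 0.05 without caged replicate 2 or 4 h replicate 1).

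The promoters of both lists were searched for the letters of factors known to act on such genes. The E2F sequence TTTCGCGC, on either strand, was in 1.02% of tested promoters and in 5 of 47 S-phase promoters, 4 of them among the 16 that were called higher. The E-box CACGTG, which MYC and related factors bind, was in 9.93% of tested promoters. It was in 14.8% of the 812 higher and 6.14% of the 456 lower ones. Among genes called by more than 2-fold it was in 1 of 47 higher and 2 of 43 lower promoters. Of 54 ribosome biogenesis promoters 19 held it, 5 of them among the 14 called higher. Shown are the 250 bases before the start of MCM6 (chr2:135876444-135876693, minus strand) and UTP20 (chr12:101279855-101280104, plus strand), with TTTCGCGC in either orientation and CACGTG in capitals.
MCM6: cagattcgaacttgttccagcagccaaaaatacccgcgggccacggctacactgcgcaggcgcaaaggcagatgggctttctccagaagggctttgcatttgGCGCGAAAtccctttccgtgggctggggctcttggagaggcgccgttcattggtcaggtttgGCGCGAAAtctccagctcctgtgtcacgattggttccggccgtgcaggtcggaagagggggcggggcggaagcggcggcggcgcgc
UTP20: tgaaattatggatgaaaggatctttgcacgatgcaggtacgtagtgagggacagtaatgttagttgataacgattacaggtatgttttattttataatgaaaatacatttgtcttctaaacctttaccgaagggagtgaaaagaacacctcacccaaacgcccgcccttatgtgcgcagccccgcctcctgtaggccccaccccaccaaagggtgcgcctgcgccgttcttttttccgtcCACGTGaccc
The MCM6 matches begin at -148 and -86, the UTP20 match at -10. A match is a description of the letters in the window.

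Stress programmes differed from each other. The p53 protein is bound by large T antigen in this line, and its target list had 15 higher and 0 lower of 37 (median 0.23); with libraries left out these were 6, 9, 8 and 3, and with cyclic loess 6. TNFRSF10D, a decoy receptor for the death ligand TRAIL, rose from 19.5 and 22 CPM to 39.4 and 44.1 CPM (log2 fold change 1.01 ± 0.097, adjusted p = 0.00191). SESN2, a stress-induced inhibitor of mTORC1, went from 426 and 436 CPM to 526 and 558 CPM (log2 fold change 0.33 ± 0.047, adjusted p = 0.00625; adjusted p 0.0274 to 0.0666 with 1 library left out, highest without 4 h replicate 2; 0.0637 with cyclic loess). The best known p53 targets did not pass: CDKN1A, the cell cycle inhibitor p21, was at 244 and 243 CPM caged and 259 and 281 CPM at 4 h (adjusted p = 0.134), and MDM2, the ligase of p53, at 607 and 636 CPM caged and 646 and 657 CPM at 4 h (adjusted p = 0.355). MDM2 was at 762 and 787 CPM at 8 h.

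The ATF4 list, genes translated or transcribed when eIF2 is phosphorylated, had 8 higher and 2 lower of 39 (median 0.13), and 7, 7, 6 and 4 higher and no lower calls with libraries left out. ATF4 itself was at 609 and 580.4 CPM caged and 787 and 806 CPM at 4 h (log2 fold change 0.42 ± 0.042, adjusted p = 0.00191), and ATF5, a related factor, at 7.14 and 7.86 CPM caged and 15.6 and 19.2 CPM at 4 h (log2 fold change 1.21 ± 0.13, adjusted p = 0.00275). The amino acid transporters SLC7A1 and SLC7A5 went from 139.9 and 130.5 CPM to 201 and 199 CPM (log2 fold change 0.57 ± 0.056, adjusted p = 0.00191) and from 156 and 152 CPM to 203 and 216 CPM (log2 fold change 0.44 ± 0.054, adjusted p = 0.00409), and SLC7A1 was at 150.2 and 154 CPM at 8 h. The unfolded protein response had 1 of 32 members higher, and NRF2 oxidative stress genes 1 of 31, with no lower call in either. Heat shock proteins had 0 higher and 5 lower of 30 (median -0.04), 1 with any library left out and 7 with cyclic loess. HSPA1B, the inducible HSP70, fell from 1014 and 843 CPM to 549 and 584 CPM, to 0.61 of the caged level (log2 fold change -0.71 ± 0.079, adjusted p = 0.00284). The HSPA1B estimates were fractional in 3 of these 4 libraries, so its reads were shared with other features there. HSPA8, its constitutive relative, was at 1156 and 1222 CPM caged and 1175 and 1168 CPM at 4 h (adjusted p = 0.774); with cyclic loess it was called lower (log2 fold change -0.21, adjusted p = 0.0198).

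Histone genes showed the largest median shift of the 28 lists plotted. Replication-dependent histone mRNAs end in a stem loop without a poly(A) tail, so in mRNA selected by its tail they are seen through the fraction that is polyadenylated. Of 32 tested core and linker histones of 69 listed, 16 were higher and 0 lower, with a median log2 fold change of 0.57. The others had counts too low to be tested. H3C14 was at 5.56 and 5.15 CPM caged and 18.9 and 18.6 CPM at 4 h, 3.5-fold (log2 fold change 1.81 ± 0.12, adjusted p = 0.000487), H2AC6 at 6.87 and 6.47 CPM caged and 13.3 and 15.2 CPM at 4 h (log2 fold change 1.1 ± 0.14, adjusted p = 0.00415) and H2BC5 at 9.7 and 11.1 CPM caged and 19.1 and 17.1 CPM at 4 h (log2 fold change 0.799 ± 0.11, adjusted p = 0.00584). All 3 had 4 h values above both caged values, and near-identical copies make the H3C14 estimate uncertain. With libraries left out the 16 calls were 6, 5, 7 and 9, and with cyclic loess 17 were higher and 1 lower.

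The CCAAT box, a proximal element that NF-Y binds, was in 22 of 28 histone promoters with an entry, 12 of the 14 called higher among them, and in 36.6% of tested promoters (CCAAT on either strand). The 250 bases before the H2AC6 start (chr6:26123922-26124171, plus strand) hold it 3 times, at -172, -98 and -68, marked here by capitals.
H2AC6: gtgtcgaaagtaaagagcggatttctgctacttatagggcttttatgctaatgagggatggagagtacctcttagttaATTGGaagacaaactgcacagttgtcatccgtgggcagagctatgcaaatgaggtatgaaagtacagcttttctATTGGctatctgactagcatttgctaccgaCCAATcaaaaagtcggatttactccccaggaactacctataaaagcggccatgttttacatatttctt
All but the last of these matches read ATTGG, which is CCAAT on the other strand.

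Lower calls were collected by developmental regulators and a few neural guidance genes. HOX genes had 1 higher and 7 lower of 37 (median -0.07), and homeobox factors outside the HOX clusters 4 higher and 10 lower of 80 (median -0.24). With libraries left out the lower calls fell to 2, 0, 1 and 2 and to 0, 1, 2 and 0, the higher ones to 0 in each fit and to 2, 1, 1 and 0, and with cyclic loess 5 members were lower in either list. HOXC11, a posterior patterning factor, fell from 26.6 and 27.2 CPM to 15.5 and 18.3 CPM (log2 fold change -0.67 ± 0.098, adjusted p = 0.00676; adjusted p 0.0292 to 0.0535 with 1 library left out, highest without caged replicate 2). LHX4, a LIM homeobox factor, fell from 13.9 and 13.9 CPM to 8.93 and 8.4 CPM (log2 fold change -0.68 ± 0.11, adjusted p = 0.0104; adjusted p 0.0488 to 0.0835 with 1 library left out, called only without 4 h replicate 1). EFNA3, a membrane-bound ligand of Eph receptors, was at 18.2 and 15.3 CPM caged and 7.68 and 7.34 CPM at 4 h, 0.45 of the caged level (log2 fold change -1.16 ± 0.13, adjusted p = 0.00284). Axon guidance genes had 4 higher and 8 lower of 64 (median -0.04), 5 lower with cyclic loess, and 0 higher with 1, 2, 4 and 1 lower as libraries were left out. NFIA, a nuclear factor I protein of glial development, fell from 36.7 and 41.8 CPM to 21.6 and 23.3 CPM (log2 fold change -0.81 ± 0.091, adjusted p = 0.00318). ANKRD26, a gene of centriole appendages, fell from 17.3 and 16.4 CPM to 7.68 and 6.68 CPM (log2 fold change -1.23 ± 0.12, adjusted p = 0.00191).

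Nuclear and mitochondrial RNAs changed in both directions. MALAT1, a long noncoding RNA of nuclear speckles (chr11:65497688-65506516, plus strand), was at 205 and 279 CPM caged and 108 and 127 CPM at 4 h, 0.48 of the caged level (log2 fold change -1.05 ± 0.14, adjusted p = 0.00509), and at 259 and 284 CPM at 8 h. Its neighbour NEAT1 is the scaffold RNA of paraspeckles. NEAT1 was at 72.5 and 69.5 CPM caged and 59.7 and 54.6 CPM at 4 h without a call (adjusted p = 0.0608). Under 4 other scalings or sample choices it was called lower (adjusted p 0.0227 to 0.0467). It was not called with cyclic loess, limma-voom or DESeq2, among others. With 1 library left out its log2 fold change was -0.378 to -0.259. Of 15 tested mitochondrially encoded genes 2 were higher and 6 lower (median -0.20). MT-ND6, the only protein gene on the light strand, fell from 1179.9 and 909.8 CPM to 573 and 641 CPM (log2 fold change -0.78 ± 0.11, adjusted p = 0.00554). The ribosomal RNA MT-RNR1 rose from 4499.7 and 4778 CPM to 5928 and 6354 CPM (log2 fold change 0.405 ± 0.046, adjusted p = 0.00322), while MT-RNR2, from the same precursor, fell from 6046 and 5509.5 CPM to 4448 and 4783 CPM (log2 fold change -0.32 ± 0.049, adjusted p = 0.00789). MT-CO1, a cytochrome oxidase subunit, fell from 16761 and 17058 CPM to 14151 and 15212 CPM (log2 fold change -0.204 ± 0.032, adjusted p = 0.00911; adjusted p 0.00703 to 0.0614 with 1 library left out, highest without caged replicate 2). With cyclic loess 1 mitochondrial gene was higher and 13 lower, and with libraries left out 5, 5, 5 and 3 were lower and 2, 1, 2 and 1 higher. Ribosomal RNA reaches such libraries only as far as the selection of poly(A) RNA lets it.

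Housekeeping groups had few calls. The list of cytosolic ribosomal proteins, drawn by gene symbol, had 1 higher and 0 lower of 85 (median 0.02). The higher call was RPL7L1 (log2 fold change 0.46), a gene named for its likeness to RPL7. With cyclic loess offsets, which remove any trend with level, 22 members of the list were lower. Nuclear-encoded oxidative phosphorylation subunits had 1 higher (NDUFA9, 0.27) and 0 lower of 83 (median 0.00; 0 higher whichever library was left out). At an unadjusted p under 0.05 there were 4678 features over the whole table, so features that did not pass are not shown to be equal between the groups.

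Zinc finger genes with ZNF symbols, many of which repress transposable elements, were the most numerous coding family listed. Of 443 tested 43 were higher and 17 lower with a median of -0.03, and this split turned with the scaling: 36 and 6 with cyclic loess, 27 and 29 with library totals alone. With libraries left out 11, 13, 14 and 8 were higher and 1, 1, 1 and 2 lower. ZNF317 went from 99.2 and 98.7 CPM to 153 and 159 CPM (log2 fold change 0.66 ± 0.053, adjusted p = 0.001), ZNF776 from 25.8 and 26.1 CPM to 50.01 and 54.1 CPM (log2 fold change 1.004 ± 0.085, adjusted p = 0.00119) and ZNF503, a repressor of another family, from 93.2 and 90.2 CPM to 155 and 152 CPM (log2 fold change 0.74 ± 0.061, adjusted p = 0.001). ZCCHC12, a retroelement-derived zinc knuckle gene, was at 4.69 and 5.53 CPM caged and 24.3 and 21 CPM at 4 h, 4.43-fold (log2 fold change 2.15 ± 0.13, adjusted p = 0.000364). SEMA3F-AS1, an antisense RNA, rose from 3.92 and 3.87 CPM to 13.1 and 14.5 CPM (log2 fold change 1.82 ± 0.12, adjusted p = 0.000609). The counting is not known to use strand, so reads from the opposite gene may enter that row.

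The share called changed with the level of the gene. Above 100 CPM 467 of 2386 features were higher (19.6%) and 23 lower (0.964%), and between 10 and 100 CPM 455 and 430 of 8089. Between 1 and 10 CPM the counts were 133 and 149 of 4966, and under 1 CPM 19 and 20 of 2008. The median log2 deviation of the features above 100 CPM from their mean over the 4 libraries was -0.055 and -0.036 in the caged and 0.051 and 0.050 in the 4 h libraries. With cyclic loess offsets the class above 100 CPM had 160 higher and 112 lower calls. Several gene lists have their counts under those offsets beside them for this reason, but others, such as the SRF and MRTF list and the ATF4 list, do not. The part of scaling in these results was not tested.

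Composition and length moved with the calls too. Coding genes with under 40% GC had 64 higher and 131 lower calls of 2159, where each of the other GC classes had more higher than lower calls, and 267 and 111 with offsets for length and GC content. Their median log2 deviation was -0.006 and 0.085 in the caged and 0.009 and -0.077 in the 4 h libraries, so 1 library of each group carried most of it, caged replicate 2 and 4 h replicate 2. LARP7, PPIG, ARID4B and ANKRD26, all lower, have 38.1%, 34.8%, 39.1% and 37.0% GC, and all but LARP7 were called in each fit with a library left out. SRSF6, SRSF3, NR1D2 and CRY1, all higher, have 39.6%, 39.3%, 38.5% and 37.2%, and of these NR1D2 and CRY1 were not called in each such fit. Coding genes of 300 to 500 kb had 3 higher and 18 lower of 383 (median -0.11), those over 500 kb 3 and 8 of 218 (median -0.10), and those of 30 to 100 kb 378 and 189 of 4602 (8.21% higher). The median gene length was 30.9 kb among the higher, 46.7 kb among the lower and 33.8 kb among all tested coding genes.

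The median CpG count of promoters did not differ between directions. It was 26 CpG per 300 bases in the promoters of higher, lower and all tested genes, beside 14 in all 27305 promoters of the table. The 47 genes called higher by more than 2-fold that had an entry had a median of 11, and the 43 called lower by more than 2-fold one of 18. The ETS sequence CCGGAAG was in 21.9% of higher, 12.1% of lower and 18.0% of tested promoters, and the CRE TGACGTCA in 4.68%, 2.19% and 3.28% (both strands; motifs were counted separately and matches of different motifs may overlap). Among those 47 and 43 genes over 2-fold, CCGGAAG was in 3 of the higher and 5 of the lower promoters, and TGACGTCA in 2 and 0. No test was run on these shares, and neighbouring or bidirectional genes can share a promoter.

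At 8 h, 16 of the 87 genes described here differed from their own 4 h level, where 570 of 17449 features did (3.27%). That contrast shares the 4 h libraries with the one above, so the values stand side by side and nothing is read from their relation. MALAT1 was higher at 8 h than at 4 h by 1.21 on the log2 scale, and MT-RNR1, MT-RNR2 and MT-ND6 by 0.56, 0.59 and 0.59. FOSL1 and SEMA3F-AS1 were higher again (0.61 and 0.56), and PPIG, UPF3B and ARID4B were higher than at 4 h (0.62, 0.63 and 0.55). MYC, SLC7A1, ZNF503, VCL and AMOT fell by 0.44, 0.39, 0.40, 0.34 and 0.25. TET2 and MDM2 were higher by 0.16 and 0.25. AMOTL2, HEY1 and ACTB, at 137 and 137 CPM, 90.6 and 97.4 CPM and 1190.2 and 1151 CPM, had no called step.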

How the data were processed

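Libraries of poly(A) RNA from HEK293T cells were grouped by their labels. The authors deposited estimated counts per feature, without normalisation. Salmon 1.1.0, GRCh38, R 3.6.1 and DESeq2 are named in the submitters' processing notes. For the transcript annotation and strand setting, the sources used here give no entry. Estimates were rounded to whole numbers. The table has 60184 rows, of which 60179 are genes and 5 plasmid sequences, kept out of library sizes. Between 20.3% and 21.7% of gene rows per library were fractional beyond 0.01, a mark of shared reads. Totals were 17490010 to 20025955 counts; replicates differed by more than counting noise (chi-square per degree of freedom 3.66 to 4.31), and counts are reads, so precision beyond counting is set by the 2 libraries a group.

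All 6 libraries were fitted with edgeR 4.0.16 (quasi-likelihood test, TMM, filterByExpr with minimum count 10 and total 15) in R 4.3.3; contrasts were 4 h minus caged and 8 h minus 4 h, with Benjamini-Hochberg adjustment over 17449 features and a threshold of 0.05. The common biological coefficient of variation was 6.34%, with 3 residual degrees of freedom. SE is the log2 fold change divided by the root of the F statistic. Alternatives used limma 3.58.1 and DESeq2 1.42.0 among 18 settings. The scripts were tested on simulated data. Coordinates, GC content and lengths are from GENCODE 29 (GRCh38), promoters from the RefSeq table (GRCh38.p14; 12039 of 17449 features matched by symbol).

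Members and lists were chosen with earlier results of these data known. The genes named come from the TET genes, the largest, most significant and most abundant changes and the leading calls of each list, 411 in all, of which the text gives a part. A further 13 were chosen after their values were seen: ANKRD1, SRF, FOS, LARP7, CDK9, CCNT1, SRCAP, UPF3B, DBP, CDKN1A, MDM2, HSPA8 and NEAT1.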

Additional observations from a re-analysis of the deposited data

Results flagged for a closer look

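For 16 of the genes described, a called step separated 8 h from 4 h (edgeR quasi-likelihood test, Benjamini-Hochberg adjusted over 17449 features, 2 libraries a group), so their changes against the same caged libraries differed between the 2 times by this test. The value given is the log2 fold change of 8 h minus 4 h with its SE. Lower again were AMOT (-0.25 ± 0.054, adjusted p = 0.0483), VCL (-0.34 ± 0.049, adjusted p = 0.0248), MYC (-0.44 ± 0.09, adjusted p = 0.0417), SLC7A1 (-0.39 ± 0.056, adjusted p = 0.0236) and ZNF503 (-0.40 ± 0.061, adjusted p = 0.025), all of them higher at 4 h than caged. Higher again were FOSL1 (0.61 ± 0.081, adjusted p = 0.0188), TET2 with its plasmid reads (0.16 ± 0.033, adjusted p = 0.0451), MT-RNR1 (0.56 ± 0.046, adjusted p = 0.00611) and SEMA3F-AS1 (0.56 ± 0.11, adjusted p = 0.0371). MDM2 stepped up (0.25 ± 0.043, adjusted p = 0.0304) without a call at 4 h. Genes that were lower at 4 h than caged stepped up: MALAT1 (1.21 ± 0.14, adjusted p = 0.0161), ARID4B (0.55 ± 0.077, adjusted p = 0.0236), PPIG (0.62 ± 0.12, adjusted p = 0.0404), UPF3B (0.63 ± 0.12, adjusted p = 0.0369), MT-ND6 (0.59 ± 0.11, adjusted p = 0.0337) and MT-RNR2 (0.59 ± 0.049, adjusted p = 0.00611). Both contrasts use the 4 h libraries, so an error in those libraries enters them with opposite signs, and its part in these steps was not tested.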

How the results depend on the processing

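Of the 76 called genes described, each kept its direction under every one of the 18 alternatives that gave it a value. Most of these genes were named for the size or significance of their change in these same libraries. Kept directions among them therefore do not show how stable the calls over all features are. Of the 1074 higher and 622 lower calls, 1055 and 573 were also made with length and GC offsets, 1057 and 602 with limma-voom and 661 and 345 with cyclic loess offsets. The number of higher and lower calls moved to 447 and 264 without the low-count filter, 155 and 62 when a change beyond 1.2-fold was tested, 544 and 379 among features with whole estimates only (fewer features tested), 1704 higher with length and GC offsets, and 303 lower with DESeq2; for the others the cause was not tested. Leaving out 1 library, which leaves a lone sample assumed to vary like the other groups, gave 165 to 420 higher and 61 to 153 lower calls. With library totals alone higher calls were 44.7% of all, with upper-quartile factors 55.8% and with DESeq2 76.2%. The median log2 fold change over all features was -0.0061 under TMM and -0.056 with library totals alone.

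The deviations of same-numbered libraries were weakly correlated over 15511 genes. The correlation was -0.037 between caged and 4 h, 0.075 between caged and 8 h and -0.111 between 4 h and 8 h. With 2 libraries a group, such values cannot show whether same-numbered libraries shared a culture or handling. The fit with the replicate block called 709 higher and 330 lower features, and 74 of the 76 described calls were made in it, LARP7 and DBP not.

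With 2 libraries a group and totals of 17744751 to 20025955 counts, features under 1 CPM yielded 39 calls of 2008, and recovery at that level was not tested. With 1 library left out, higher calls went from 20 to between 3 and 9 for S-phase genes, from 17 to between 2 and 8 for ribosome biogenesis genes and from 8 to between 0 and 5 for lysine methyltransferase genes. Of 2386 features over 100 CPM, 467 were called higher and 23 lower under TMM, and 160 and 112 under cyclic loess; which scaling is right cannot be read from these libraries. Light, medium and time cannot be told apart from uncaging. The 32 genes fractional in each of the 4 libraries, and those fractional in some of them, carry the uncertainty of the authors' read assignment.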
